A study of Rattus norvegicus with 24 samples.

Results

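The expression of Tlr4 and Cd14, genes for the receptor and co-receptor of lipopolysaccharide (LPS), and of Tlr2, the gene for a related receptor, was examined in microglia of postnatal day 9 rats. The 3 genes were chosen by name and by their Ensembl identifiers, ENSRNOG00000010522 (Tlr4), ENSRNOG00000017819 (Cd14) and ENSRNOG00000009822 (Tlr2). They are 3 of the 32754 genes in the count files and 3 of the 12860 that passed the filter on low counts. The rule that chose them uses no measured value, but it was written with earlier results of these data known.

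Male and female pups lived with their dams through 8 days of normoxia (Nx, 21% O2) or intermittent hypoxia (IH, cycles of 2 min between 10.5% and 21% O2 for 8 h a day). On day 9, 16 h after the last exposure, they received an intraperitoneal injection of vehicle or LPS, and the cells were taken 3 h later. Sex, oxygen and injection form 8 groups of 3 samples, named here as in the labels: Male Nx, Male Nx LPS, Male IH, Male IH LPS and the same 4 for females. The groups without LPS in their name received vehicle, which is saline in the sample labels and HBSS in the study's methods, and the LPS dose is given as 0.1 mg/kg in the study's text and as 0.1 mg/mL in the sample labels. The rats were Sprague-Dawley, and no transgene or deletion was used. Microglia were pulled from the brain, without cerebellum and olfactory bulbs, with magnetic beads and an antibody to CD11b/c, which other myeloid cells such as monocytes also carry. The labels do not say whether each sample came from 1 pup. Pups were exposed together with their dams and no litter is given, so samples of a group may share a litter. The p-values measure the spread between these samples, treated as independent, and not the spread between litters. The count files pair no identifier with a name, so markers of microglia and of other myeloid cells could not be checked against the label.

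LPS is the outer membrane lipid of gram-negative bacteria. CD14 is a surface protein that takes up LPS and hands it to TLR4, the signalling receptor, which starts the NF-κB and interferon responses. TLR2 is a related receptor that recognises bacterial lipoproteins and not LPS itself, and it can also use CD14 as a helper.

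Reads were mapped to rn6, of which no genome was used here, so positions and sequence are from RefSeq, build GRCr8, where all 3 genes were found by symbol. They are protein-coding genes at chr5:85161247-85174882 (Tlr4, plus strand), chr18:28609558-28611409 (Cd14, minus strand) and chr2:171499189-171504831 (Tlr2, minus strand). The 250 bases before the start used for each gene were searched on both strands. The motifs were the NF-κB consensus (by name), the AP-1 motif TGANTCA, the PU.1-type motif GAGGAAG and the hypoxia response core ACGTG. The window of Tlr4, the receptor gene whose level fell with LPS in Nx, is shown whole because it lies outside the annotated gene. It covers chr5:85160997-85161246 and holds 1 match in capitals, the PU.1-type motif on the opposite strand, 68 to 62 bases before the start.

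Tlr4: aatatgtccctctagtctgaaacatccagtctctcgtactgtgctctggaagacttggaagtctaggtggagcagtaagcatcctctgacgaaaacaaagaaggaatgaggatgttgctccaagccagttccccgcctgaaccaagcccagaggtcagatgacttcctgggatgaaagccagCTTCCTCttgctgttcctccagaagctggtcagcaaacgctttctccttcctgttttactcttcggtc

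The starts used for Cd14 and Tlr2 lie 251 and 274 bases inside the outermost annotated bounds of these genes. Their windows therefore lie wholly within the annotated genes, not before them, and may hold transcribed sequence. For these windows, 30 bases around each match are shown. Cd14 has 2 PU.1-type matches, at 140 to 134 and 105 to 99 bases before the start, in the stretches chr18:28611280-28611309 and chr18:28611245-28611274. Tlr2 has the NF-κB consensus at 206 to 196 bases, where matches overlap, and at 42 to 33 bases, in the stretches chr2:171504743-171504772 and chr2:171504580-171504609. Capitals mark the matched bases, and each line reads 5′ to 3′ on the strand of the gene.

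Cd14, distal: agggttgttagGAGGAAGagaagtggggaa
Cd14, proximal: ttgagttcacaGAGGAAGggacagggtgac
Tlr2, distal: aggcccttgGGGGAATTCCCatacggagcc
Tlr2, proximal: ccctggcctgGGGACGTCCCcttcccgcac

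Of 33469 rat promoter windows of the same length, 6.33% held the NF-κB consensus, 6.34% the AP-1 motif, 10.2% the PU.1-type motif and 16.6% the hypoxia response core. The AP-1 motif and the hypoxia response core were not among the letters of these 3 windows. GC content was 50% for Tlr4, 46.8% for Cd14 and 60% for Tlr2, with a median of 51.2% over all windows. These matches describe the sequence and were not tested as binding sites.

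The values are CPM, gene counts scaled to a common library size (edgeR's cpm) after TMM adjustment, a correction for the composition of each library. The total count on genes ranged from 6624453 to 8548714 per sample, and each receptor gene had counts in all 24 samples, from 132 to 807 for Tlr4, from 572 to 6590 for Cd14 and from 1917 to 8132 for Tlr2. Counting error was therefore at most 8.7% of a value for Tlr4, 4.18% for Cd14 and 2.28% for Tlr2, below the fitted variation between replicates of 29.5%, 39.4% and 23.4%. No transcript lengths are given, so levels are compared between samples and not between genes. The response to LPS was checked with 6 induced genes that the study pairs with identifiers, Il1a, Il6, Cxcl1, Cxcl10, Ptgs2 and Icam1. All 6 were higher with LPS in both oxygen groups. In Nx all 6 passed the test, where 9.26% of all tested genes passed as higher. In IH 5 of 6 passed, beside 5.05%, and Il1a did not (1.35, edgeR adjusted p = 0.0791). The median log2 fold changes of the 6 genes were 3.84 and 3.07, beside −0.04 and −0.01 over all tested genes. The study listed these 6 genes from these same samples as lower with IH in LPS females, so they are not independent evidence. For LPS females, lower levels in IH than in Nx are given by that listing, which did not use the males. How much of the difference over both sexes comes from the listing was not tested. The mean log2 CPM of the 6 genes, called the response index below, was 1.70 to 2.58 in the 12 vehicle samples. It was 3.83 in Male Nx LPS 2 and 3.25 in Male IH LPS 3, and from 4.64 to 6.84 in the other 10 LPS samples. Results that rest on these 2 libraries are given with and without them, a choice made after seeing the data. The 2 libraries were picked for their weak response, so larger LPS effects in fits without them are no independent support.

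In vehicle samples no difference between oxygen groups or sexes passed the test for a receptor gene, and the spread was widest for Tlr4 in Female Nx. After LPS, Cd14 rose most, 5.02-fold in Nx and 3.77-fold in IH, Tlr2 rose 2.29-fold and 1.83-fold, and Tlr4 fell to 0.454 of the vehicle level in Nx. In IH the fitted Tlr4 level was 0.679 of vehicle, which did not pass the test. IH did not change any of the 3 genes past the test, before or after LPS.

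**Figure D1:**
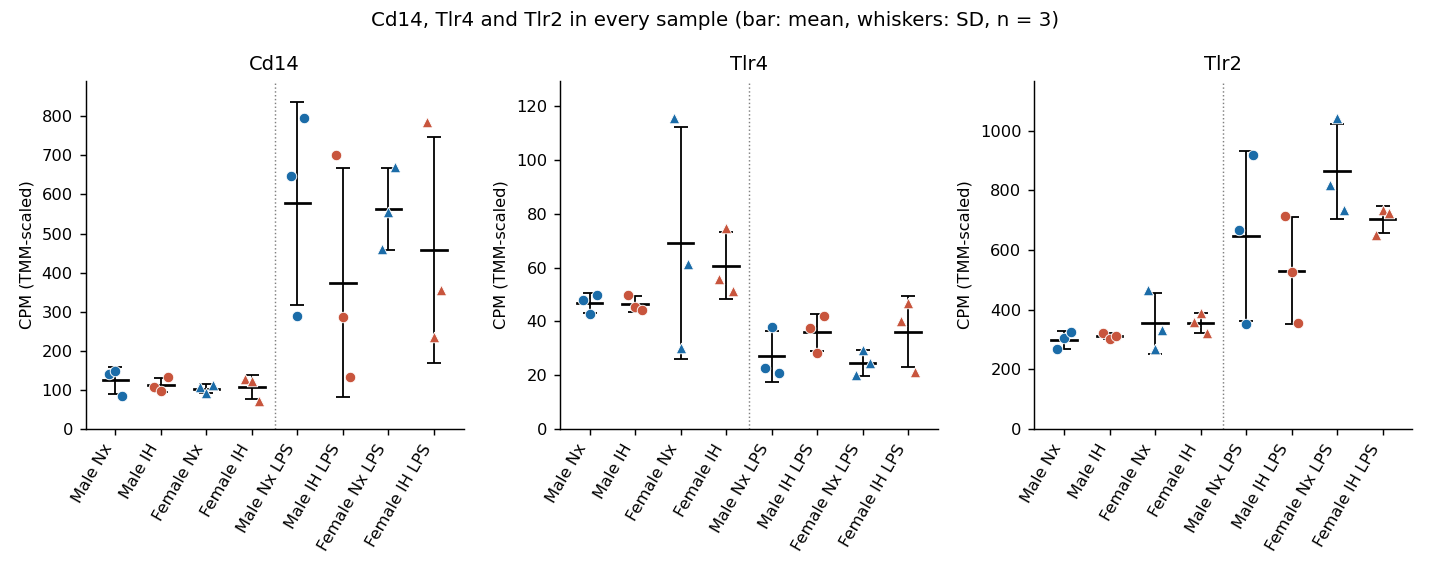
CPM (y axis, from 0) of Cd14, Tlr4 and Tlr2 in every sample of the 8 groups (x axis), with circles for males, triangles for females, blue for Nx and red for IH, a black bar at the group mean and whiskers of 1 SD (n = 3). Vehicle groups stand left of the dotted line; in each pair of groups of the same sex and oxygen, all 3 LPS samples lie above vehicle for Cd14 and Tlr2 and below it for Tlr4.

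Cd14, the LPS-binding co-receptor, was at 140.5, 147.3 and 85.03 CPM in Male Nx and at 107.1, 96.7 and 132 CPM in Male IH. In females it was at 106.9, 91.78 and 112.5 CPM in Nx and at 128.7, 122.8 and 71.84 CPM in IH. The 12 vehicle samples thus ran from 71.84 to 147.3 CPM, with overlapping groups. After LPS, Cd14 was at 648, 288.4 and 794.8 CPM in Male Nx LPS and at 461.6, 555.9 and 671.4 CPM in Female Nx LPS. It was at 702, 287.9 and 133.9 CPM in Male IH LPS and at 784.5, 235.6 and 354.6 CPM in Female IH LPS. Every LPS sample was above every vehicle sample of its own oxygen group, but only narrowly for Male IH LPS 3, whose 133.9 CPM compares with 132 CPM in the highest vehicle sample of IH and lies below the 147.3 CPM of Male Nx 2. In bulk samples, more cells that carry a transcript and more of it in each cell cannot be told apart.

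The mean of Cd14 over both sexes was 114 ± 25.3 CPM in Nx vehicle and 570 ± 178 CPM in Nx LPS (SD, n = 6 each). The log2 fold change was 2.33 (SE 0.35, 95% interval 1.60 to 3.05, edgeR adjusted p = 0.000103). In IH the means were 109.9 ± 23.0 and 416 ± 265 CPM (SD, n = 6 each), with a log2 fold change of 1.92 (SE 0.34, 95% interval 1.20 to 2.63, edgeR adjusted p = 0.00118). Ranked by log2 fold change among 12860 genes, Cd14 was the 153rd highest in Nx and the 168th highest in IH. Both passed, with log2 fold changes of 2.49 and 2.12, when Male Nx LPS 2 and Male IH LPS 3 were left out. The spread of Cd14 after LPS was wide, with a coefficient of variation of 46.5% over the 12 LPS samples and 20.7% over the 12 vehicle samples.

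Tlr4, the signalling receptor for LPS, was at 47.87, 42.83 and 50.0 CPM in Male Nx and at 49.88, 45.39 and 44.19 CPM in Male IH. Males thus varied little. It was at 115.5, 30.27 and 61.41 CPM in Female Nx and at 55.92, 74.76 and 51.37 CPM in Female IH, so that the highest and the lowest of the 12 vehicle samples were both in Female Nx. After LPS it was at 22.62, 37.94 and 20.7 CPM in Male Nx LPS and at 19.92, 29.33 and 24.38 CPM in Female Nx LPS. In IH it was at 37.71, 28.22 and 41.86 CPM in Male IH LPS and at 40.12, 46.81 and 21.39 CPM in Female IH LPS. In each oxygen group, 5 of 6 LPS samples were below all 6 vehicle samples. The exceptions were Male Nx LPS 2, above the 30.27 CPM of Female Nx 2, and Female IH LPS 2, above the 44.19 CPM of Male IH 3.

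Tlr4 averaged 58.0 ± 29.9 CPM in Nx vehicle and 25.8 ± 6.82 CPM in Nx LPS (SD, n = 6 each). It fell by 1.14 on the log2 scale (SE 0.25, 95% interval −1.66 to −0.62, edgeR adjusted p = 0.00324) and was the 226th lowest log2 fold change of 12860. In IH it averaged 53.6 ± 11.2 CPM with vehicle and 36.0 ± 9.43 CPM with LPS (SD, n = 6 each). The log2 fold change in IH was −0.56 (SE 0.25, 95% interval −1.07 to −0.05), with an unadjusted p of 0.0333 and an edgeR adjusted p of 0.204. Female Nx 1, with the highest vehicle level, moved the Nx value most. Without it the log2 fold change was −0.85 (edgeR adjusted p = 0.0115). Leaving out Male Nx LPS 2 and Male IH LPS 3 gave −1.30 in Nx (edgeR adjusted p = 0.00128) and −0.62 in IH (edgeR adjusted p = 0.127).

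Tlr2, the lipoprotein receptor, was at 267.8, 304.8 and 325.2 CPM in Male Nx and at 322.4, 301.8 and 311.7 CPM in Male IH. It was at 466.4, 267.4 and 330.8 CPM in Female Nx and at 357.6, 389.5 and 322.8 CPM in Female IH. Female Nx 1 was again the highest vehicle sample, and Female Nx 2 and Male Nx 1 were the lowest. After LPS it was at 667, 352.8 and 920.3 CPM in Male Nx LPS and at 819.6, 1042 and 733.2 CPM in Female Nx LPS. It was at 713.1, 526.9 and 354.5 CPM in Male IH LPS and at 649.9, 733.9 and 725.5 CPM in Female IH LPS. In each oxygen group 5 of 6 LPS samples were above all 6 vehicle samples, and the samples that were not were Male Nx LPS 2 and Male IH LPS 3.

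Tlr2 averaged 327 ± 73.5 CPM in Nx vehicle and 756 ± 238 CPM in Nx LPS (SD, n = 6 each), a log2 fold change of 1.20 (SE 0.19, 95% interval 0.80 to 1.60, edgeR adjusted p = 0.000205). In IH the means were 334 ± 33.0 and 617 ± 150 CPM (SD, n = 6 each), a log2 fold change of 0.87 (SE 0.19, 95% interval 0.48 to 1.27, edgeR adjusted p = 0.00621). Tlr2 was the 453rd highest log2 fold change in Nx and the 563rd highest in IH. With Male Nx LPS 2 and Male IH LPS 3 left out the values were 1.35 and 0.99, and both passed.

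All 3 receptor genes passed in Nx, where 16.1% of the tested genes did, 9.26% higher and 6.84% lower with LPS. In IH 2 of 3 passed, with 7.16% of the tested genes passing, 5.05% higher and 2.12% lower. The 7.16% stand for 921 genes, a count that was 602 without Male IH LPS 1 and 1602 without Male Nx LPS 2 and Male IH LPS 3. For Cd14 alone, the 6 LPS and the 6 vehicle samples did not overlap in either oxygen group, which held for 6.97% of the tested genes in Nx and 3.68% in IH. With the 3 samples of each sex and oxygen taken apart, no LPS sample overlapped vehicle for any of the 3 genes. LPS was above vehicle without overlap in all 4 such pairs of groups for 2.58% of the tested genes, as for Cd14 and Tlr2, and below it for 0.871%, as for Tlr4.

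**Figure D2:**
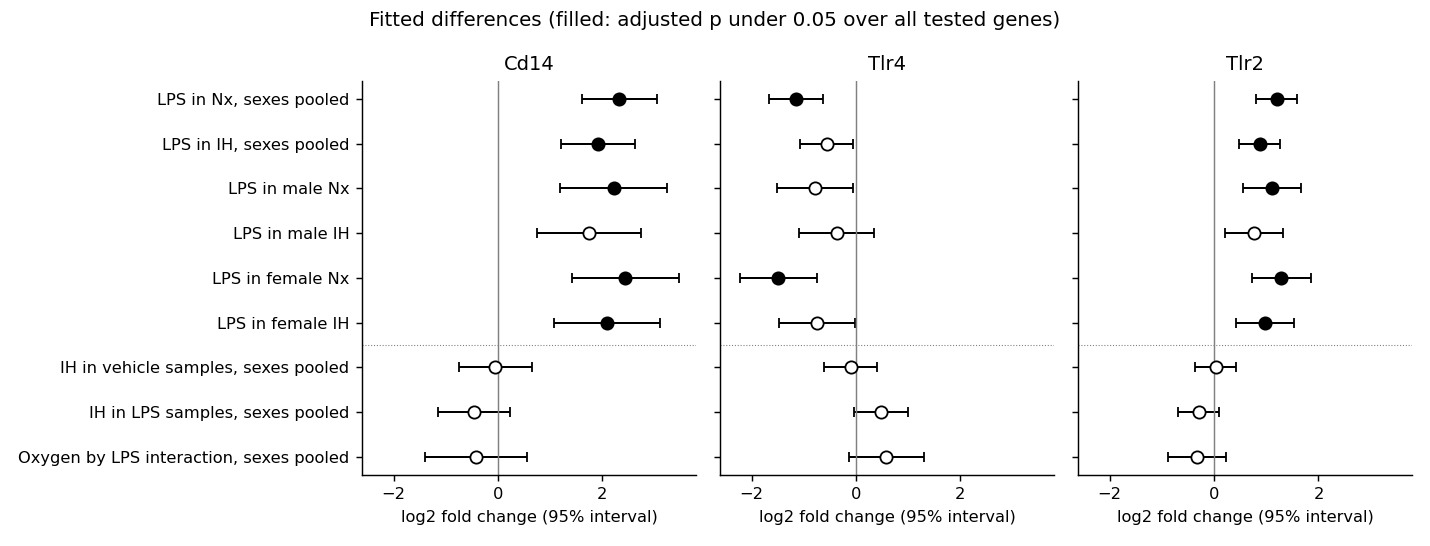
Fitted log2 fold changes (x axis) of Cd14, Tlr4 and Tlr2 for 9 comparisons (y axis) with 95% intervals, filled where the edgeR adjusted p over all tested genes was under 0.05. The LPS values lie right of 0 for Cd14 and Tlr2 and left of 0 for Tlr4 in every comparison shown, and the 3 rows below the dotted line, which compare IH with Nx, are open for all 3 genes.

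By sex, Cd14 rose in Male Nx with a log2 fold change of 2.22 (edgeR adjusted p = 0.0128) and in Female Nx with 2.44 (edgeR adjusted p = 0.00471). It rose in Female IH with 2.09 (edgeR adjusted p = 0.0186), and in Male IH the value was 1.74 (edgeR adjusted p = 0.110). Tlr2 rose in Male Nx with 1.11 (edgeR adjusted p = 0.0225), in Female Nx with 1.29 (edgeR adjusted p = 0.00647) and in Female IH with 0.98 (edgeR adjusted p = 0.0491), and its value in Male IH was 0.77 (edgeR adjusted p = 0.277). The log2 fold change of Tlr4 in Female Nx was −1.49 (edgeR adjusted p = 0.0145). Its values were −0.79 in Male Nx (edgeR adjusted p = 0.255), −0.37 in Male IH (edgeR adjusted p = 0.894) and −0.75 in Female IH (edgeR adjusted p = 0.318). The share of tested genes that passed was 4.07% in Male Nx, 6.43% in Female Nx, 0.855% in Male IH and 3.23% in Female IH.

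Several of these values or calls by sex depended on single libraries or on the test. Fitted to only the groups compared, Tlr4 in Female Nx (−1.47, edgeR adjusted p = 0.139) and Tlr2 in Male Nx (1.11, edgeR adjusted p = 0.146) missed the threshold. Cd14 in Male IH passed with DESeq2 (adjusted p = 0.0141) and with edgeR's likelihood ratio test (adjusted p = 0.0209), and Tlr2 in Female IH missed the threshold with a replicate block (edgeR adjusted p = 0.0598). The fall of Tlr4 in Female Nx was −0.90 without Female Nx 1 (edgeR adjusted p = 0.128), and it also missed the threshold without Female Nx LPS 1 (edgeR adjusted p = 0.0694) or Female Nx LPS 3 (edgeR adjusted p = 0.0652). Without Male IH LPS 3 the rise of Cd14 in Male IH was 2.14 and passed (edgeR adjusted p = 0.0112), but without Male IH LPS 1 it was 0.91 (edgeR adjusted p = 0.934). Without both Male Nx LPS 2 and Male IH LPS 3, Tlr2 in Male IH was 0.99 and passed as well (edgeR adjusted p = 0.00668), but without Male IH LPS 1 it was 0.50 (edgeR adjusted p = 0.989). The Tlr4 value was −0.22 in Male IH without Male IH LPS 2, and −0.48 in Female IH without Female IH LPS 3. Cd14 in Male Nx lost the call without Male Nx 1, Male Nx 3, Male Nx LPS 1 or Male Nx LPS 3, with edgeR adjusted p from 0.051 to 0.0784. Its log2 fold change in these fits stayed between 1.91 and 2.31. Tlr2 in Male Nx lost the call without any of these 4 libraries or Male Nx 2, with edgeR adjusted p from 0.0652 to 0.197. Its log2 fold change was 0.77 without Male Nx LPS 3 and between 1.04 and 1.18 in the other fits that lost the call. Cd14 in Female IH lost the call without Female IH 1, Female IH 2, Female IH 3 or Female IH LPS 1, with edgeR adjusted p from 0.055 to 0.155. Its log2 fold changes in these fits were 2.24, 2.19, 1.87 and 1.45 in the same order. Tlr2 in Female IH, close to the threshold, kept the call in 7 of the 24 fits with 1 library left out.

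The effect of LPS did not differ between the sexes past the test. The interaction of sex and LPS, male minus female, was −0.29 for Cd14 (95% interval −1.26 to 0.69), 0.54 for Tlr4 (−0.19 to 1.26) and −0.19 for Tlr2 (−0.75 to 0.36). No tested gene passed this interaction (0%) with edgeR's quasi-likelihood test, and 169 had an unadjusted p under 0.05. With vehicle, males minus females was 0.16 for Cd14, −0.47 for Tlr4 (edgeR's unadjusted p = 0.0673, edgeR adjusted p = 0.435) and −0.22 for Tlr2, where 0.0622% of the tested genes passed. With LPS it was −0.13 for Cd14, 0.07 for Tlr4 and −0.41 for Tlr2 (edgeR's unadjusted p = 0.041, edgeR adjusted p = 0.448), where 0.0700% passed. Single libraries moved these values. The Tlr4 difference between the sexes with vehicle was −0.18 without Female Nx 1 and −0.65 without Female Nx 2 (edgeR's unadjusted p = 0.005, edgeR adjusted p = 0.12), and the Tlr2 value with vehicle was −0.0961 without Female Nx 1. The interaction of sex and LPS for Tlr4 was 0.24 without Female Nx 1, 0.72 without Female Nx 2 (edgeR's unadjusted p = 0.0214, edgeR adjusted p = 1), 0.38 without Male Nx LPS 2 and 0.31 without both Male Nx LPS 2 and Male IH LPS 3. For Cd14 and Tlr2 the same interaction was 0.0765 and 0.0666 without these 2 libraries. The Tlr2 difference between the sexes with LPS was −0.26 without Male Nx LPS 2 (edgeR's unadjusted p = 0.12) and −0.15 without both libraries (edgeR's unadjusted p = 0.308), and the values of Cd14 and Tlr4 without both were 0.23 and −0.16. The sign of the Cd14 value with LPS turned without Male Nx LPS 2, Male IH LPS 3 or Female IH LPS 1, and that of Tlr4 without Male Nx LPS 2 or Female IH LPS 3.

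Before LPS, the difference between IH and Nx was smaller than the spread between samples for each receptor gene. The log2 fold change of IH over Nx in vehicle samples was −0.05 for Cd14 (95% interval −0.74 to 0.65), −0.10 for Tlr4 (−0.61 to 0.41) and 0.03 for Tlr2 (−0.36 to 0.43). On a linear scale these intervals ran from 0.598 to 1.56 for Cd14, from 0.657 to 1.32 for Tlr4 and from 0.779 to 1.34 for Tlr2, and the groups overlapped for each gene. The sign of the Tlr4 value rested on Female Nx 1, without which it was 0.19. The Cd14 value turned sign without Male Nx 1, Male Nx 2 or Female IH 3, and the Tlr2 value without Male Nx 1, Female Nx 2 or Female IH 2. No tested gene passed (0%) with edgeR's quasi-likelihood test, 130 had an unadjusted p under 0.05, and DESeq2 and the likelihood ratio test of edgeR also gave 0. In males the values were −0.15 for Cd14, −0.01 for Tlr4 and 0.06 for Tlr2, and in females 0.05, −0.19 and 0.01 in the same order. The Tlr4 value in females was 0.40 without Female Nx 1 and −0.54 without Female Nx 2. None of the tested genes passed in either sex (0% each), with 100 genes at an unadjusted p under 0.05 in males and 125 in females by the same test.

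After LPS, the values in IH lay closer to vehicle for all 3 genes, but the difference between IH and Nx did not pass the test. IH minus Nx in LPS samples was −0.46 for Cd14 (95% interval −1.15 to 0.23, edgeR's unadjusted p = 0.178), 0.48 for Tlr4 (−0.04 to 1.00, edgeR's unadjusted p = 0.0663) and −0.29 for Tlr2 (−0.68 to 0.10, edgeR's unadjusted p = 0.138), each with an edgeR adjusted p of 1. These are 0.727, 1.40 and 0.817 of the Nx level, and the intervals allow from 0.451 to 1.17 for Cd14, from 0.976 to 2.00 for Tlr4 and from 0.623 to 1.07 for Tlr2. In IH, 3 of 6 LPS samples had less Cd14 than every Nx LPS sample, and 3 of 6 had more Tlr4 than every one. Both limits were set by Male Nx LPS 2, and for Cd14 Male IH LPS 2 was nearly tied with it (287.9 against 288.4 CPM). The highest Cd14 in IH LPS, 784.5 CPM, was close to the highest in Nx LPS, 794.8 CPM. For Tlr2, no IH LPS sample was below the range of the Nx LPS samples. The share of all tested genes with such counts was not computed. No tested gene passed (0%) with edgeR's quasi-likelihood test, while 378 had an unadjusted p under 0.05, and DESeq2 and edgeR's likelihood ratio test were also at 0. Without Male Nx LPS 2 and Male IH LPS 3 the values were −0.42 for Cd14, 0.58 for Tlr4 (edgeR's unadjusted p = 0.0453) and −0.33 for Tlr2 (edgeR's unadjusted p = 0.0366), again with an edgeR adjusted p of 1. Single libraries moved the values for Cd14 and Tlr2 by more. The Cd14 value was −0.87 without Male IH LPS 1 (edgeR's unadjusted p = 0.00892), −0.78 without Female IH LPS 1 (edgeR's unadjusted p = 0.0263), −0.30 without Female IH LPS 2 and −0.26 without Male IH LPS 3. The Tlr2 value was −0.44 without Male Nx LPS 2 (edgeR's unadjusted p = 0.0133), −0.18 without Male IH LPS 3 and −0.12 without Male Nx LPS 3. The Tlr4 value ranged from 0.37 to 0.64 with 1 library left out, and over all these fits of the 3 genes the lowest edgeR adjusted p was 0.518.

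The same held by sex. IH minus Nx in LPS males was −0.62 for Cd14, 0.41 for Tlr4 and −0.28 for Tlr2, and in LPS females −0.30, 0.56 and −0.30 in the same order, each with an edgeR adjusted p of 1. In males, Cd14 was −1.45 without Male IH LPS 1 (edgeR's unadjusted p = 0.00531, edgeR adjusted p = 0.681), −0.95 without Male Nx LPS 2, −0.32 without Male Nx LPS 3 and −0.22 without Male IH LPS 3. Tlr4 in males was 0.73 without Male Nx LPS 2 and 0.25 without Male Nx LPS 3. Tlr2 in males was −0.58 without Male Nx LPS 2 (edgeR's unadjusted p = 0.0252), −0.55 without Male IH LPS 1, −0.0608 without Male IH LPS 3 and 0.0599 without Male Nx LPS 3. In females, Cd14 ranged from −0.93 without Female IH LPS 1 to 0.0168 without Female IH LPS 2, Tlr4 from 0.33 without Female IH LPS 2 to 0.82 without Female IH LPS 3 (edgeR's unadjusted p = 0.0339), and Tlr2 from −0.40 without Female Nx LPS 3 to −0.14 without Female Nx LPS 2. None of the tested genes passed in either sex with edgeR's quasi-likelihood test (0% each), with 250 genes at an unadjusted p under 0.05 in males and 296 in females. The difference between the sexes in this effect, male minus female, was −0.33 for Cd14 (95% interval −1.70 to 1.05), −0.15 for Tlr4 (−1.18 to 0.88) and 0.02 for Tlr2 (−0.77 to 0.80). It was past the threshold for no gene (0%), with 218 at an unadjusted p under 0.05. Its sign turned with single libraries for each receptor gene. Cd14 was −1.16 without Male IH LPS 1 and 0.31 without Female IH LPS 1. Tlr4 was −0.41 without Female IH LPS 3 and 0.18 without Male Nx LPS 2. Tlr2 was −0.28 without Male Nx LPS 2 and 0.36 without Male Nx LPS 3.

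The interaction of oxygen and LPS asks directly whether the LPS effect differed between IH and Nx. It was −0.41 for Cd14 (95% interval −1.39 to 0.56, edgeR's unadjusted p = 0.39), 0.58 for Tlr4 (−0.14 to 1.30, edgeR's unadjusted p = 0.109) and −0.32 for Tlr2 (−0.88 to 0.23, edgeR's unadjusted p = 0.238), each with an edgeR adjusted p of 1. Each value is opposite in sign to the LPS effect in Nx. The size of these values depended on single libraries, with an edgeR adjusted p of 1 throughout. For Tlr4 it was 0.29 without Female Nx 1 (edgeR's unadjusted p = 0.341) and 0.76 without Female Nx 2 (edgeR's unadjusted p = 0.0154). For Cd14 it was −0.83 without Male IH LPS 1, −0.73 without Female IH LPS 1, −0.26 without Male Nx LPS 3 or Female IH LPS 2 and −0.21 without Male IH LPS 3. For Tlr2 it was −0.47 without Male Nx LPS 2 (edgeR's unadjusted p = 0.0465), −0.15 without Male Nx LPS 3 and −0.21 without Male IH LPS 3. No tested gene passed (0%) with edgeR's quasi-likelihood test, with 182 at an unadjusted p under 0.05, and none by DESeq2 or edgeR's likelihood ratio test. So the pass of Tlr4 in Nx and its miss in IH do not show that the effects differ.

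Ordered by the mean of the 8 groups, Cd14 ran from Male Nx LPS (577 CPM) through Female Nx LPS (563 CPM), Female IH LPS (458 CPM) and Male IH LPS (375 CPM) to Male Nx (124 CPM), Male IH (112 CPM), Female IH (108 CPM) and Female Nx (104 CPM). Every group overlapped its neighbour in this order. Tlr4 ran the other way, from Female Nx (69.1 CPM), Female IH (60.7 CPM), Male Nx (46.9 CPM) and Male IH (46.5 CPM) to Female IH LPS (36.1 CPM), Male IH LPS (35.9 CPM), Male Nx LPS (27.1 CPM) and Female Nx LPS (24.5 CPM). For Tlr4, Female IH and Male Nx were the neighbours without overlap. Tlr2 ran from Female Nx LPS (865 CPM), Female IH LPS (703 CPM), Male Nx LPS (647 CPM) and Male IH LPS (532 CPM) to Female IH (357 CPM), Female Nx (355 CPM), Male IH (312 CPM) and Male Nx (299 CPM), with overlap between all neighbours. For each gene, the 4 LPS groups held one end of the order and the 4 vehicle groups the other.

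Sample by sample, 9 relations were examined on log2 CPM, the 3 pairs of receptor genes in the 12 vehicle and in the 12 LPS samples and the response index with each gene in the LPS samples. In vehicle samples, Tlr2 and Tlr4 varied together (Pearson r = 0.928, permutation p = 6e-05, adjusted over the 9 relations 0.00054, Spearman rho = 0.923, permutation p = 9e-05). Female Nx 1 and Female IH 2 were the samples farthest from the median of Tlr2. Without them r was 0.744 (permutation p = 0.0125, adjusted p = 0.112). Within groups, on deviations from the group means, r was 0.926 with an exact permutation p of 0.0417 and an adjusted p of 0.151. Cd14 did not follow either gene with vehicle, with r of −0.00228 to Tlr2 (rho = −0.0839) and 0.0741 to Tlr4 (rho = −0.154), and permutation p of 0.994, 0.801, 0.824 and 0.638. Without the 2 samples farthest from the median of Cd14, Female IH 3 and Male Nx 2, these r were 0.0535 and 0.198.

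**Figure D3:**
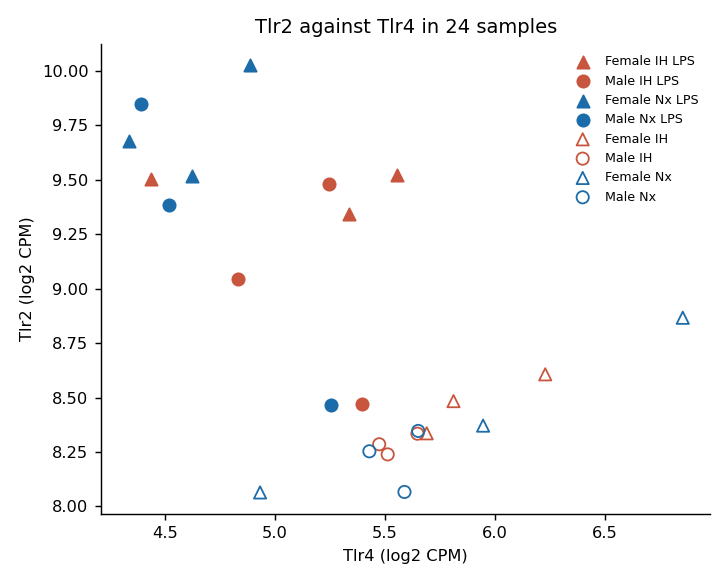
Tlr2 (y axis, log2 CPM) against Tlr4 (x axis, log2 CPM) in 24 samples, with open symbols for vehicle, filled symbols for LPS, circles for males, triangles for females, blue for Nx and red for IH. The 12 vehicle samples rise together (r = 0.928), while the LPS samples lie above and to the left of most of them, with Male Nx LPS 2 and Male IH LPS 3 the lowest filled symbols.

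In LPS samples, Cd14 and Tlr2 had r = 0.675 (permutation p = 0.0162, adjusted p = 0.0291) but a Spearman rho of 0.371 (permutation p = 0.237). It was 0.612 without Male IH LPS 3 and Female IH LPS 2, the samples farthest from the median of Cd14 (adjusted p = 0.164), and 0.311 without Male Nx LPS 2 and Male IH LPS 3. It also missed the threshold without Male Nx LPS 3, Male IH LPS 2 or Male IH LPS 3 alone, with r of 0.636, 0.659 and 0.480 and adjusted permutation p of 0.0667, 0.0566 and 0.253. The other pairs did not pass, with r = −0.441 for Cd14 and Tlr4 (rho = −0.399, permutation p of 0.149 and 0.2) and r = −0.494 for Tlr2 and Tlr4 (rho = −0.455, permutation p of 0.109 and 0.14). Without their 2 farthest samples these r were −0.0106 and −0.234.

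The response index was related to all 3 genes over the 12 LPS samples, with r = 0.691 for Cd14 (permutation p = 0.0129, adjusted p = 0.029), −0.724 for Tlr4 (permutation p = 0.00801, adjusted p = 0.024) and 0.768 for Tlr2 (permutation p = 0.00453, adjusted p = 0.0204). Spearman's rho was 0.503, −0.594 and 0.559 in the same order, with permutation p of 0.101, 0.0453 and 0.0631, none of which passed adjustment (0.228, 0.189 and 0.189). Without Male Nx LPS 2 and Male IH LPS 3, the 2 samples farthest from the median index, r fell to 0.319 for Cd14 and 0.253 for Tlr2, so these relations rest on those libraries. Without Male IH LPS 3 alone, r was 0.477 for Cd14, −0.688 for Tlr4 and 0.640 for Tlr2, and none passed (adjusted permutation p of 0.253, 0.0883 and 0.103). Without Male Nx LPS 3 alone, Cd14 and Tlr4 also missed the threshold (adjusted permutation p of 0.0608 and 0.0561). The r for Tlr4 without the same 2 libraries was −0.682 (permutation p = 0.0316, adjusted p = 0.142). Within groups r was 0.652 for Cd14, −0.65 for Tlr4 and 0.836 for Tlr2, with exact permutation p of 0.127, 0.034 and 0.0548 and adjusted p of 0.228, 0.151 and 0.151. The part that the response of a sample plays in the receptor levels of the oxygen groups was not tested.

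**Figure D4:**
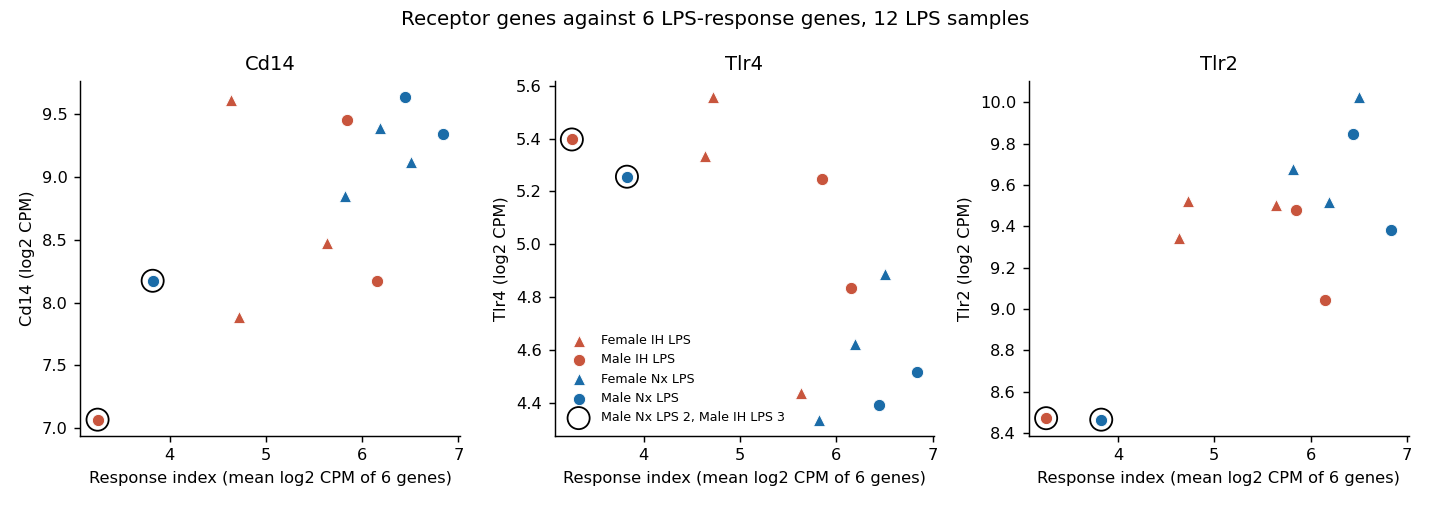
Cd14, Tlr4 and Tlr2 (y axes, log2 CPM) against the response index (x axes, mean log2 CPM of Il1a, Il6, Cxcl1, Cxcl10, Ptgs2 and Icam1) in the 12 LPS samples, with circles for males, triangles for females, blue for Nx and red for IH, and black rings around Male Nx LPS 2 and Male IH LPS 3. The ringed libraries have the lowest index, 3.83 and 3.25, and lie at the left of each panel, with the lowest 2 values of Tlr2, while Tlr4 runs downward (r = −0.724).

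The genes whose log2 CPM followed each receptor gene most closely over the 24 samples are known here by identifier only, since the files do not pair them with names. ENSRNOG00000001271 followed Tlr4 with r = 0.94 over 24 samples, 0.936 over the vehicle and 0.898 over the LPS samples, and ENSRNOG00000006958 with 0.924. Both had log2 fold changes of −1.17 with LPS in Nx. ENSRNOG00000037443 was nearest to Cd14 with r = 0.971 over 24 samples, 0.414 over the vehicle and 0.95 over the LPS samples. ENSRNOG00000008620 was nearest to Tlr2 with 0.973, 0.877 and 0.932. Among the 21 genes with a name, Cxcl10, an interferon-induced chemokine, came closest to Cd14 (r = 0.931, rank 41 of 12860), and Cd83, a surface protein of activated antigen-presenting cells, closest to Tlr2 (r = 0.94, rank 18). Irf1, an interferon response factor, was the most opposite to Tlr4 of the named genes (r = −0.826). All these correlations share the LPS contrast and the libraries, and are given as a description. The other genes of the LPS signalling pathway were listed for counting, but 0 of the 137 listed pathway and marker genes could be paired with an identifier, so no count of them is given.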

How the data were processed

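Rat microglia RNA was sequenced in 24 samples, 3 in each of 8 groups taken from the sample labels. The authors prepared stranded libraries, aligned the reads to rn6 with TopHat2 2.1, counted reads per Ensembl gene with HTSeq and deposited raw counts per gene. Between 11.7% and 23.4% of the entries of a file were reads aligned to more than 1 place, highest in Male Nx 2, which were left out together with reads on no gene or more than 1 gene (15.0% to 21.4%). Multiply placed reads being dropped lowers counts of genes with near copies.

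In R 4.3.3, genes above 1 CPM in at least 3 samples were kept, libraries were scaled by TMM (factors 0.917 to 1.08) and 1 model with a mean per group was fitted to all 24 samples with edgeR 4.0.16. Each contrast was given edgeR's quasi-likelihood F test, and p-values were adjusted by Benjamini-Hochberg over 12860 genes, with a threshold of 0.05. The pooled contrasts weight both sexes equally. Standard errors are the log2 fold change over the root of F. Relations used log2 CPM with a prior count of 2 and 100000 two-sided permutations (numpy 2.4.6), or exact permutation within groups. Procedures were tested on simulated data. Samples of 1 group differed beyond sampling noise (chi-square per degree of freedom 7.81 or more in 24 pairs). On deviations from the group means, same-numbered samples had a mean correlation of 0.0503 (−0.57 to 0.487, 84 pairs). Samples with different numbers had −0.0253 (−0.61 to 0.589, 168 pairs). This difference was not tested, so it does not decide whether replicate numbers pair samples. No sequencing batch is given in the sources used here.

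Alternatives were DESeq2 1.42.0, edgeR's likelihood ratio test, RLE size factors, no filter, a replicate block, only the groups compared, another prior count, each library left out, and 2 libraries left out together. The receptor genes, lists and tests were chosen with earlier results of these data known. Named genes were to include pathway genes and the 3 nearest genes per receptor, but the files pair no names with identifiers. Names come from the study's text, and 4 nearest identifiers are given. The 6 induced genes are those of 14 listed that could be paired.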

Additional observations from a re-analysis of the deposited data

How the results depend on the processing

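The pooled LPS effects in Nx passed the threshold for all 3 genes, and those in IH for Cd14 and Tlr2, in each of 24 fits with 1 library left out and under each of 7 other settings. Tlr4 in IH passed in none of these 31 (edgeR or DESeq2 adjusted p 0.0915 to 0.422). The median of all tested genes in the pooled LPS comparisons moved by less than 0.1 on the log2 scale under every setting. With the replicate block, Tlr2 in Female IH was 0.98 and missed the threshold (adjusted p = 0.0598), and the block changed no other call of the receptor genes. Fitted to only the groups compared, Tlr4 in Female Nx was −1.47 (adjusted p = 0.139) and Tlr2 in Male Nx 1.11 (adjusted p = 0.146), while the oxygen by LPS and sex by LPS interactions use all groups and had no such fit. Cd14 in Male IH passed with DESeq2 (1.74, adjusted p = 0.0141) and with edgeR's likelihood ratio test (1.74, adjusted p = 0.0209). Without Male Nx LPS 2 and Male IH LPS 3, Cd14 (2.14) and Tlr2 (0.99) passed in Male IH, and 1602 rather than 921 genes passed for LPS in IH. The sign of uncalled values then turned for sex in LPS samples (Tlr4 −0.157, Cd14 0.234), for sex by LPS (Cd14 0.0765, Tlr2 0.0666) and for sex by IH (Tlr4 0.0510, Tlr2 −0.0576). Sex by IH of Tlr2 was also −0.0142 with DESeq2, −0.0141 with RLE size factors and −0.0234 with only the groups compared. The causes of these moves were not tested, beyond the smaller number of samples or groups in a fit.

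With 1 library left out, Tlr4 with LPS ranged from −1.85 to −0.90 in Female Nx, −1.11 to −0.63 in Male Nx, −0.495 to −0.224 in Male IH and −0.978 to −0.481 in Female IH. For Cd14 with LPS it was 1.91 to 2.54 in Male Nx, 0.91 to 2.14 in Male IH and 1.45 to 2.40 in Female IH. For Tlr2 with LPS it was 0.77 to 1.41 in Male Nx, 0.498 to 0.991 in Male IH and 0.91 to 1.05 in Female IH. IH with vehicle ranged from −0.28 to 0.19 for Tlr4, from −0.154 to 0.0633 for Cd14 and from −0.0502 to 0.157 for Tlr2. In males alone it ranged from −0.0931 to 0.0352 for Tlr4, −0.363 to −0.0105 for Cd14 and −0.0141 to 0.124 for Tlr2, and in females from −0.54 to 0.40 for Tlr4, −0.0932 to 0.277 for Cd14 and −0.16 to 0.25 for Tlr2. IH with LPS, sexes pooled, ranged from −0.87 to −0.26 for Cd14, 0.37 to 0.64 for Tlr4 and −0.44 to −0.12 for Tlr2, and oxygen by LPS from −0.83 to −0.21, 0.29 to 0.76 and −0.47 to −0.15 in the same order. Sex with vehicle ranged from 0.0465 to 0.264 for Cd14, −0.65 to −0.18 for Tlr4 and −0.303 to −0.0961 for Tlr2. By sex, IH with LPS ranged from −0.932 to 0.0168 for Cd14, 0.325 to 0.822 for Tlr4 and −0.404 to −0.143 for Tlr2 in females, and from −1.45 to −0.221 for Cd14, 0.247 to 0.730 for Tlr4 and −0.578 to 0.0599 for Tlr2 in males. Sex with LPS ranged from −0.0944 to 0.182 for Tlr4, −0.54 to 0.19 for Cd14 and −0.583 to −0.264 for Tlr2, sex by LPS from −0.700 to 0.0319 for Cd14, 0.243 to 0.716 for Tlr4 and −0.364 to −0.0445 for Tlr2, and sex by IH from −0.41 to 0.18 for Tlr4, −1.16 to 0.31 for Cd14 and −0.28 to 0.36 for Tlr2. Of the relations, r ranged from −0.12 to 0.17 for Cd14 and Tlr2 with vehicle, −0.0785 to 0.182 for Cd14 and Tlr4 with vehicle, 0.48 to 0.76 for Cd14 and Tlr2 with LPS, and for the response index −0.78 to −0.69 with Tlr4, 0.48 to 0.84 with Cd14 and 0.64 to 0.84 with Tlr2. On deviations from the group means, r was 0.164 for Cd14 and Tlr2 with vehicle, 0.926 for Tlr2 and Tlr4 with vehicle, 0.670 for Cd14 and Tlr2 with LPS, and −0.650, 0.652 and 0.836 for the response index with Tlr4, Cd14 and Tlr2, none of which passed. Without Male Nx LPS 2 and Male IH LPS 3, r was 0.311 for Cd14 and Tlr2 with LPS and −0.682, 0.319 and 0.253 for the index in the same order, again without a pass.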
